A study of Homo sapiens with 18 samples.

Results

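The genes described here are 61 of the 38716 gene symbols counted in mRNA-seq of IMR90, human fetal lung fibroblasts, whose mRNA was lower in cells treated with the small molecule inflachromene (ICM) and higher in replicatively senescent (old) cells than in proliferating (young) cells. They were chosen from the mRNA-seq group means in CPM (counts scaled to the library total) of the reads in the 5′ UTR, the CDS and the 3′ UTR. A member had a log2 ICM/young of at most -0.8 and a log2 old/young of at least 0.8, both on CPM + 1, and a mean of at least 5 CPM in its highest group, and symbols beginning HIST were left out. Of the 11338 genes that met the level criterion, 12.6% met the ICM criterion, 6.97% met the old criterion and 0.538% met both. The mRNA values thus chose the members and are given below as a description, without a test. Ribosome footprints, which the choice did not use, were tested.

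Ribo-seq (sequencing of mRNA fragments protected by ribosomes) and mRNA-seq were each done on 3 young, 3 old and 3 ICM cultures, 18 libraries in all. Young cells were proliferating IMR90, old cells were IMR90 passaged into replicative senescence, and ICM cells were IMR90 exposed to inflachromene, a binder of the chromatin-associated HMGB1 and HMGB2 that the study used to induce senescence. All 3 conditions are cultures of 1 fibroblast line, and the labels of these libraries give no passage number, dose or time. The study's results described the data on senescent cells as generated earlier, while its methods described Ribo-seq of all 3 conditions under 1 protocol. Whether the old libraries were made apart from the others is thus not clear, so that the old condition and the time of its generation cannot be told apart. Per the study's methods the 3 replicates were grown independently, and the mRNA-seq and Ribo-seq libraries of a replicate number came from 1 lysate, so that the footprints are a second measurement of the same cultures and not of further ones.

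The mRNA-seq libraries held 7902427 to 14144455 reads in coding genes and the Ribo-seq libraries 46239 to 1718521 CDS reads, with young replicate 1, old replicate 2 and ICM replicate 3 the shallowest of their groups. Of these 3 Ribo-seq libraries, young replicate 1 and old replicate 2 also stood clearly apart in content, and ICM replicate 3 less so. The footprints of 9 genes with mRNA at 20 CPM or more in ICM and at least 32-fold lower in young and old summed to 643 CPM in young replicate 1 and 740 CPM in old replicate 2, against 65.8 to 90.1 CPM in the other young and old libraries and 4044 to 6283 CPM in ICM. Footprints of 2 genes high in young and old and at least 32-fold lower in ICM mRNA were few in every ICM library. They stood at 86.5 CPM in ICM replicate 3, from 4 reads, against 8.89 and 38.0 CPM in ICM replicates 1 and 2, from 2 and 3 reads. For these 2 genes the difference of ICM replicate 3 thus rested on few reads. The 9 genes high in ICM were lowest in ICM replicate 3 among the ICM libraries, at 4044 CPM of footprints from 187 reads. In ICM replicates 1 and 2 they stood at 6283 and 5683 CPM. Their summed mRNA was alike in the ICM libraries, at 4008 to 4178 CPM. What lowered these footprints in ICM replicate 3 was not tested. Counts of members called or not overlapping in footprints are therefore also given without young replicate 1, old replicate 2 and ICM replicate 3, the libraries in doubt. Fibroblast markers were high in every library, with 10 of 10 genes past 5 CPM. They summed to 29352 to 33089 CPM in young, 25886 to 29121 in old and 12644 to 12929 in ICM. In ICM 5 of the 10 were lower and 0 higher, and in old 1 was higher and 1 lower, and their part in the results was not tested. The epithelial (0 of 10 past 5 CPM, 0.5 to 2.2 CPM summed), endothelial (1 of 10, 54.7 to 103 CPM) and leukocyte lists (1 of 10, 20.3 to 68.2 CPM) were low. CDH5 was at 0, and EPCAM and PTPRC had group means of at most 0.735 and 0.112 CPM. A list of 10 proliferation genes moved with both contrasts, 10 of 10 lower in ICM and in old, at 767 to 804 CPM summed in young, 173 to 195 in old and 26.0 to 31.1 in ICM, and its part in the results was not tested. In bulk samples such as these, fewer cells of a type and less RNA per cell cannot be told apart.

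Senescent cells stop dividing for good while they stay metabolically active, and many of them secrete cytokines, proteases and matrix proteins, a programme called the senescence-associated secretory phenotype (SASP). Fibroblasts in addition build and remodel the extracellular matrix, pull on it with an actin and myosin cytoskeleton and respond to growth factors of the TGF-beta, WNT and IGF families. A protein is made only where ribosomes load onto its mRNA, so that a footprint level combines the amount of an mRNA with how heavily it is translated.

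The 61 members included matrix proteins and their modifiers (TIMP3, THBS1, TGM2, ADAM19, COL11A1, XYLT1), secreted ligands and antagonists (IGF2, INHBA, WNT5B, IL11, KISS1, NPPB, NOG), cytoskeletal and mechanosensitive genes (CALD1, NES, FILIP1L, ANKRD1, LIMS2), junction and surface proteins (CLDN1, ITGA6, MCAM, CD274, PDCD1LG2) and the chromatin protein HMGA2. In mRNA-seq, the median log2 ICM/young was -1.39 and the median log2 old/young 1.30, beside medians of 0.01 and -0.10 over all 11338 genes. Between the 2 senescence models, the median log2 old/ICM was 2.69, from 1.72 in ADCK2 to 7.19 in KISS1. In every one of the 61, all 3 old libraries lay above all 3 young libraries and all 3 young libraries above all 3 ICM libraries. Over all 11338 genes, 27.9% had every old library above every young one, 38.0% every young library above every ICM one and 27.6% every old library above every ICM one. The choice of members on the group means of these same libraries made such counts likely, so that they are no support for the members.

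**Figure D1:**
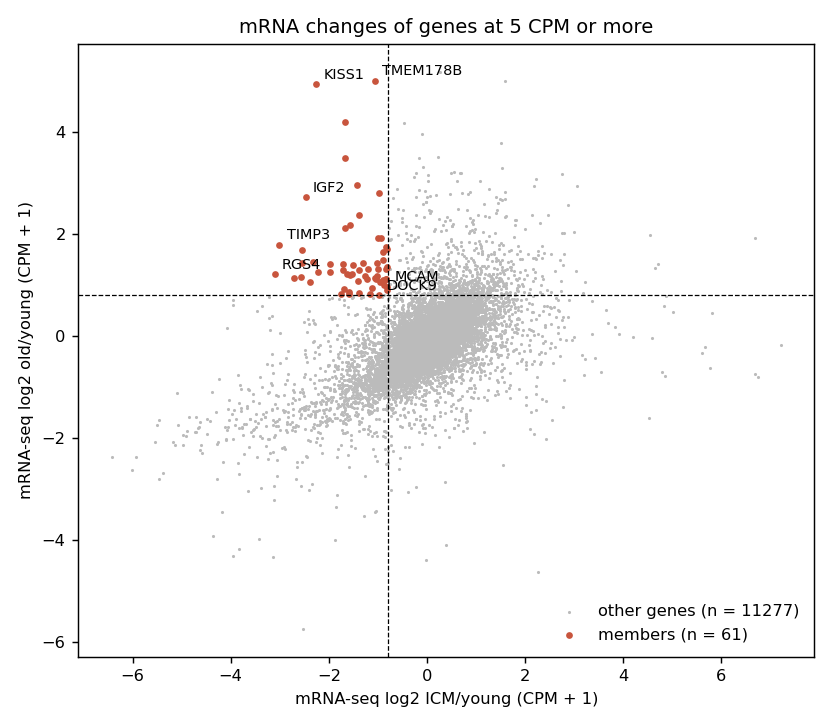
Each point is 1 of 11338 genes with a highest group mean of at least 5 CPM, with mRNA-seq log2 ICM/young on the x axis and log2 old/young on the y axis (both on CPM + 1). The 61 members (red) fill the corner beyond the dashed thresholds of -0.8 and 0.8, with TMEM178B (log2 old/young 5.01) at the top and RGS4 (log2 ICM/young -3.10) at the left.

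The rule has sharp edges. MCAM, THBS1 and TBC1D2 lay just inside the ICM threshold at -0.81 each, while ARHGDIB, A2M and TPBG lay just outside at -0.79, -0.77 and -0.77. On the old side DOCK9, UACA and NLRP10 were members at 0.80, 0.82 and 0.83, whereas SPARC, MET and KCNN2 stood at 0.80, 0.79 and 0.78 and were not. SPARC missed the threshold in the fourth decimal, with a log2 old/young of 0.7998. In all, 11 members had a log2 ICM/young of at most -2 and 10 a log2 old/young of at least 2.

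The letters upstream of the members' start sites were read. That the members moved alike in mRNA was fixed by the rule and is no sign of shared control. RefSeq windows on GRCh38.p14, from 250 bases before to 50 bases after the start of a transcript, were found for 49 of the 61 genes and for 27305 genes in all. The AP-1 motif TGANTCA stood on either strand in 4 of 49 members (8.16%) and in 7.76% of all windows, and the motif GGAATG of TEAD factors, the DNA-binding partners of YAP and TAZ, in 9 of 49 (18.4%) and 14.05%. The TATA box motif TATAAA was in 8 of 49 (16.3%) and 11.95%, the NF-kappaB motif in 4 of 49 (8.16%) and 5.72%, and the CArG box of SRF in 1 of 49 (2.04%) and 1.29%. These shares were not tested, and a match shows only that the letters are present. The windows over all genes were not limited to genes past 5 CPM. Shown here are some of the matches, picked after all matches were seen from members whose values are given below, as the strand of the gene reads 5′ to 3′, with the match in capitals. ANKRD1, a muscle ankyrin repeat gene widely used as a YAP and TAZ target, held 2 TEAD matches and 1 AP-1 match.
ANKRD1 TEAD site, chr10:90921290-90921319, minus strand: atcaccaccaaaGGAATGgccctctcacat
ANKRD1 AP-1 site, chr10:90921264-90921293, minus strand: acatttcttccTGATTCAcatattcagcag
ANKRD1 TEAD site nearer the start, chr10:90921198-90921227, minus strand: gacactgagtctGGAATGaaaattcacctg
THBS1 TEAD site, chr15:39581021-39581050, plus strand: gaggaatccccaGGAATGcgagcgcccctt
CALD1 TEAD site, chr7:134779428-134779457, plus strand: gagcatgcctagGGAATGacaggcatctcc
IL11 AP-1 site, chr19:55370541-55370570, minus strand: ggcagggagggTGAGTCAggatgtgtcagg
KISS1 TATA site, chr1:204196503-204196532, minus strand: caccccgggcttTATAAAagggatgtgatc
FILIP1L CArG box, chr3:99876214-99876243, minus strand: acgcggagcgCCTTATAAGGcagaacagtg

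Matrix genes gave the members their highest mRNA and footprint counts. TIMP3, an inhibitor of metalloproteinases that stays bound to the matrix, had mRNA at 939, 898 and 884 CPM in young, 3119, 3081 and 3192 CPM in old and 109, 118 and 109 CPM in ICM, so that the mean in old was 28.0-fold that in ICM. Its footprints followed, at 790, 585 and 600 CPM in young, 2732, 2011 and 2706 in old and 182, 127 and 346 in ICM. In Ribo-seq TIMP3 fell in ICM vs young (log2 change -1.68, SE 0.26, edgeR adjusted p 6.41e-06) and rose in old vs young (2.12, SE 0.19, edgeR adjusted p 8.20e-11), and no 2 groups overlapped in either assay.

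THBS1 encodes thrombospondin-1, a secreted glycoprotein that binds matrix and activates latent TGF-beta. Its mRNA was at 869, 943 and 1067 CPM in young, 2435, 2294 and 2670 in old and 546, 534 and 564 in ICM, and its footprints at 3133, 3568 and 3844 CPM in young, 9814, 8893 and 11055 in old and 2468, 2317 and 2638 in ICM. THBS1 alone held 43.6% of the members' CDS footprints. Its footprint change in ICM vs young was the smallest among those called (log2 -0.53, SE 0.16, edgeR adjusted p 0.0115), and the call was lost without young replicate 3 (edgeR adjusted p 0.0688) and with UTR reads included (0.224).

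TGM2, the tissue transglutaminase that crosslinks matrix proteins, had mRNA at 273, 263 and 262 CPM in young, 1174, 1010 and 1281 in old and 80.1, 89.7 and 77.7 in ICM. Footprints of TGM2 were at 423, 343 and 315 CPM in young, 1878, 1554 and 2154 in old and 129, 50.6 and 260 in ICM, again without overlap. They fell in ICM vs young (log2 -1.39, SE 0.30, edgeR adjusted p 0.00065) and rose in old vs young (2.59, SE 0.20). For ADAM19, a membrane-anchored metalloproteinase, the same order held in mRNA (193, 179 and 175 CPM in young, 966, 880 and 989 in old, 64.5, 70.7 and 71.4 in ICM) but only the rise in old was called in footprints (log2 2.78, SE 0.21, edgeR adjusted p 2.24e-12). In ICM vs young the ADAM19 footprint change was -0.47 (SE 0.42, edgeR adjusted p 0.433), with 73.5, 84.7 and 57.6 CPM in young overlapping 39.99, 50.6 and 86.5 CPM in ICM, the last of these from ICM replicate 3.

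LRRC17, a secreted leucine-rich repeat protein, fell in footprints from 368, 527 and 617 CPM in young to 129, 165 and 173 in ICM (log2 -1.90, SE 0.26, edgeR adjusted p 7.24e-07) and rose to 1207, 1024 and 1089 in old (1.15, SE 0.18). COL11A1, a chain of the fibrillar collagen XI, had mRNA at 9.49, 9.52 and 7.64 CPM in young, 25.4, 22.5 and 29.2 in old and 0.856, 0.707 and 0.532 in ICM. XYLT1, which starts glycosaminoglycan chains on proteoglycans, was the only tested member not called in ICM vs old footprints (log2 -1.70, SE 0.62, edgeR adjusted p 0.0608), from 7 ICM reads. It was called there with no filter on low counts (edgeR adjusted p 0.0383), without old replicate 2 (0.0429) and without ICM replicate 3 (0.0379). Its change in ICM vs young was 0.09 (SE 0.74), within an interval of 2 SE from -1.38 to 1.57, so that the mRNA difference of -1.30 is inside the interval.

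**Figure D2:**
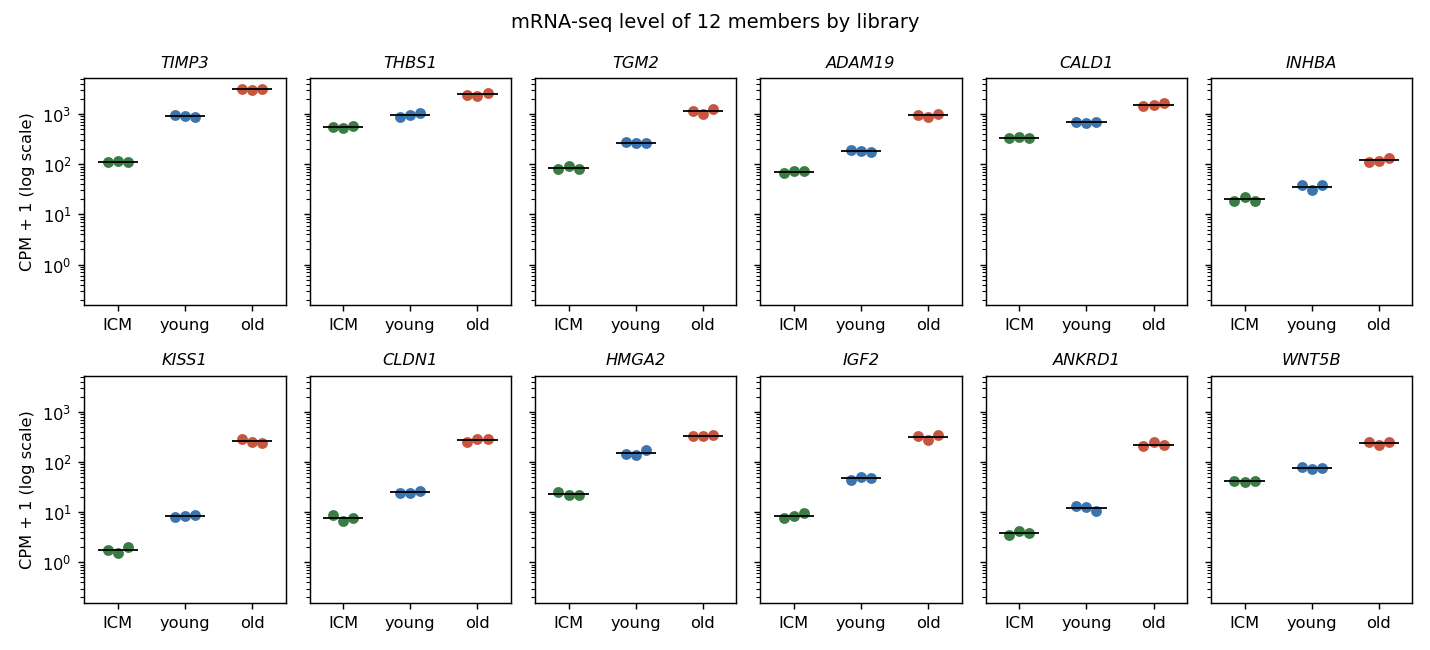
mRNA-seq level of 12 members in each library (points, CPM + 1 on a log axis) with the group mean (line), for ICM, young and old, 3 libraries each. In all 12 the ICM libraries lie lowest and the old libraries highest, with the widest span in KISS1 (0.566 to 288 CPM).

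Among the secreted ligands, KISS1 had the largest difference. KISS1 encodes the precursor of kisspeptin, a peptide hormone known from the control of reproduction. Its mRNA was at 7.09, 7.49 and 7.93 CPM in young, 288, 248 and 240 in old and 0.778, 0.566 and 0.975 in ICM, a 335-fold difference between the old and ICM means. KISS1 footprints stood at 537, 439 and 572 CPM in old and rose over young (log2 5.71, SE 0.29, edgeR adjusted p 5.92e-17). The young libraries were at 0, 10.2 and 11.6 CPM and the ICM libraries at 4.44, 0 and 43.3 CPM, the last being 2 of the 3 KISS1 reads in ICM, and no change was called between them (log2 -0.33, SE 0.95, edgeR adjusted p 0.823). Pooled over libraries, old was 63.5-fold above ICM, with a counting interval of 21.7 to 308.

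NPPB, the gene of B-type natriuretic peptide, was at 2.02, 1.85 and 2.23 CPM of mRNA in young and 21.5, 23.3 and 22.8 in old. In ICM its mRNA was at 0.311, 0 and 0.0887 CPM. Its footprints were at 32.9, 36.6 and 30.8 CPM in old, at 0, 0 and 2.91 CPM in young and at 0 in the 3 ICM libraries. Against a floor of 3 reads over the 3 ICM libraries together, old was at least 3.79-fold higher.

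INHBA, the subunit of activin A, a TGF-beta family ligand, had mRNA at 37.0, 30.1 and 36.9 CPM in young, 111, 114 and 129 in old and 17.8, 21.1 and 17.8 in ICM. Footprints of INHBA were at 0, 29.2 and 29.7 CPM in young, 142, 146 and 151 in old and 4.44, 0 and 0 in ICM, where they came from 1 read. They fell in ICM vs young (log2 -3.23, SE 1.06, edgeR adjusted p 0.021), a call that DESeq2, a fit with the replicate number as a block and the fits without young replicate 3 or ICM replicate 1 did not make, and rose in old (2.46, SE 0.27). The BMP antagonist NOG, also of this axis, had mRNA at 8.48, 8.72 and 9.97 CPM in young, 19.6, 18.7 and 24.9 in old and 3.81, 3.11 and 4.52 in ICM, and only 2 footprints in ICM.

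IGF2, a fetal growth factor, had mRNA at 43.2, 48.3 and 46.9 CPM in young, 320, 268 and 338 in old and 6.62, 7.45 and 8.47 in ICM. Its footprints rose from 9.19, 13.9 and 24.1 CPM in young to 103, 64.0 and 71.1 in old (log2 2.24, SE 0.33, edgeR adjusted p 2.26e-06), while the change in ICM, to 1.5 estimated reads, was not called (-2.74, SE 1.24, edgeR adjusted p 0.0994). Without the 3 libraries in doubt, and without ICM replicate 3 alone, that change was called. IL11, a cytokine of the IL-6 family and a SASP component, had mRNA at 28.6, 25.8 and 23.2 CPM in young, 57.3, 53.5 and 68.8 in old and 10.1, 12.6 and 7.89 in ICM. It had 20 footprints in young, 65 in old and 0 in ICM, so that old was at least 3.28-fold above ICM.

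For WNT5B, a non-canonical WNT ligand, the direction of the footprint difference between ICM and young was not settled. Its mRNA was at 78.7, 71.8 and 75.1 CPM in young and 41.4, 37.9 and 40.8 in ICM, and its footprints were at 175, 68.4 and 66.7 CPM in young and 116, 38.0 and 130 in ICM. The mean footprint level was lower in ICM (94.4 against 103 CPM), while the fitted log2 change was 0.44 (SE 0.37, edgeR adjusted p 0.405), was not called and turned to -0.14 without ICM replicate 1. In old WNT5B footprints rose to 276, 280 and 295 CPM (log2 2.08, SE 0.23).

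Cytoskeletal and mechanosensitive members followed. CALD1, an actin-binding regulator of contraction, had mRNA at 686, 671 and 694 CPM in young, 1472, 1501 and 1663 in old and 331, 350 and 336 in ICM. Its footprints fell from 790, 1011 and 942 CPM in young to 307, 355 and 606 in ICM (log2 -1.31, SE 0.22, edgeR adjusted p 1.71e-05) and rose to 1822, 1718 and 1919 in old (1.07, SE 0.17). NES, the intermediate filament protein nestin, fell in ICM footprints (-2.19, SE 0.43, edgeR adjusted p 0.000199) and rose in old (1.44, SE 0.22). FILIP1L, which holds the CArG box shown above, had the smallest footprint difference between old and ICM among members called there (log2 ICM/old -1.56, SE 0.33, edgeR adjusted p 0.000818).

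ANKRD1 mRNA was at 12.1, 11.5 and 9.58 CPM in young, 206, 243 and 213 in old and 2.49, 3.11 and 2.84 in ICM. Its footprints rose in old from 36.8, 13.1 and 13.97 CPM to 347, 238 and 421 CPM (log2 4.76, SE 0.29, edgeR adjusted p 4.54e-15). In ICM they stood at 35.5, 0 and 43.3 CPM from 10 reads, which gave a positive log2 change against young (0.98, SE 0.66, edgeR adjusted p 0.295) that was not called. Of the 27 members tested, ANKRD1, WNT5B and XYLT1 had a positive fitted change in ICM vs young, none of them called, and those of WNT5B and XYLT1 were negative without ICM replicate 1. By mean CPM, WNT5B and XYLT1 were lower in ICM than in young, and KISS1, with a negative fitted change, was higher (15.9 against 7.29).

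Of the junction and surface genes, CLDN1, a tight junction claudin, had mRNA at 22.8, 22.5 and 25.4 CPM in young, 254, 291 and 280 in old and 7.78, 5.75 and 6.74 in ICM. CLDN1 footprints were at 276, 201 and 305 CPM in old and rose over young (log2 4.28, SE 0.31, edgeR adjusted p 5.67e-13), and the ICM libraries held 3 reads. The laminin receptor subunit ITGA6 rose in old (0.99, SE 0.25, edgeR adjusted p 0.00206), and its change in ICM vs young was not called (-0.87, SE 0.47). The 2 ligands of the immune checkpoint receptor PD-1 were both members. PDCD1LG2 (PD-L2) had mRNA at 39.1, 36.5 and 38.9 CPM in young, 98.8, 112 and 105 in old and 22.3, 16.8 and 16.0 in ICM, and its footprints rose in old (1.54, SE 0.30, edgeR adjusted p 0.000107). CD274 (PD-L1) had mRNA at 15.1, 15.0 and 12.9 CPM in young, 26.6, 28.4 and 23.6 in old and 4.67, 6.69 and 6.03 in ICM. Its footprints in ICM were 5 reads in replicate 2 alone, which put the mean of ICM (0, 63.3 and 0 CPM) above that of old (28.7, 0 and 27.4 CPM), the single member for which this was so.

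HMGA2, an architectural chromatin protein of fetal cells that also accumulates in senescent chromatin, had mRNA at 144, 138 and 169 CPM in young, 332, 324 and 341 in old and 24.4, 20.8 and 21.1 in ICM. Its footprints were at 91.9, 51.1 and 50.04 CPM in young, 103, 73.1 and 77.1 in old and 4.44, 0 and 64.9 in ICM, so that ICM replicate 3, with 3 of the 4 ICM reads, overlapped young. The fall in ICM vs young was called (log2 -2.15, SE 0.73, edgeR adjusted p 0.0254), but not by DESeq2, with the block, with UTR reads included or without any 1 of young replicates 2 and 3 and ICM replicates 1 and 2.

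Signalling and metabolic members completed the set. TXNIP, the thioredoxin inhibitor that restrains glucose uptake, fell in ICM footprints (-1.08, SE 0.34, edgeR adjusted p 0.0157) and rose in old (1.60, SE 0.20), with 165, 163 and 167 CPM in young, 512, 292 and 468 in old and 66.7, 114 and 64.9 in ICM. SLC20A1, a sodium-dependent phosphate transporter, fell in ICM (-1.26, SE 0.41, edgeR adjusted p 0.0205) and rose in old (1.16, SE 0.22). UACA, a coiled-coil autoantigen linked to apoptosis, fell in ICM (-1.66, SE 0.31, edgeR adjusted p 0.000113) but was not called in old (0.38, SE 0.21, edgeR adjusted p 0.145), where its mRNA difference of 0.82 lay just past the threshold.

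RGS4, a GTPase-activating protein for G-alpha subunits, had the lowest log2 ICM/young of all members (-3.10), with mRNA at 39.6, 34.9 and 39.4 CPM in young, 86.8, 90.0 and 90.3 in old and 3.74, 3.49 and 3.37 in ICM. Its 2 footprints in ICM against 133 in old gave a pooled old/ICM ratio of 10.1 with a counting interval of 2.74 to 84.1. TMEM178B, a transmembrane protein, was at 4.30, 4.85 and 5.61 CPM of mRNA in young, 191, 172 and 205 in old and 2.10, 1.51 and 1.86 in ICM, and had 58 footprints in old, 3 in young and 0 in ICM. Further members with low counts were the urea transporter SLC14A1 (mRNA at 1.90, 2.64 and 3.00 CPM in young, 9.03, 8.19 and 7.84 in old and 0, 0.126 and 0.0739 in ICM), the hydrogen peroxide producer NOX4, the small GTPase DIRAS3 and the beta-like globins HBB and HBD.

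**Figure D3:**
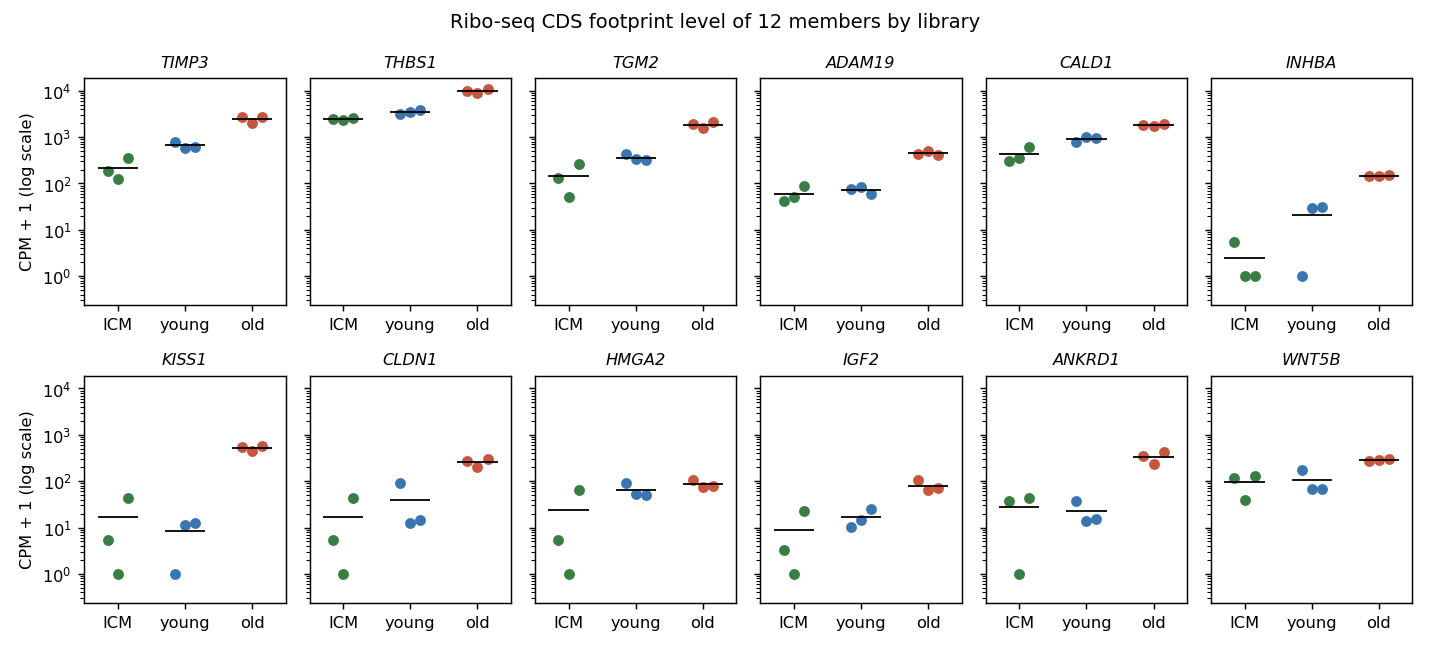
Ribo-seq CDS footprint level of the 12 members of the mRNA plot in each library (points, CPM + 1 on a log axis) with the group mean (line). Old libraries lie highest in each gene except HMGA2, where young replicate 1 (91.9 CPM) lies above old replicates 2 and 3, and young and ICM libraries overlap in 8 of the 12.

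In Ribo-seq, 4643 genes passed the edgeR filter on low counts, 27 members among them. In ICM vs young, 12 of the 27 were called lower and 0 higher (edgeR adjusted p under 0.05), beside 12.9% of all genes tested called lower. In old vs young, 25 were called higher and 0 lower, beside 19.3% of all genes called higher, and in ICM vs old, 26 were called lower and 0 higher, beside 7.62%. The medians of the 27 log2 changes were -1.20, 1.60 and -2.86, beside 0.00, 0.02 and -0.02 over all genes tested. A member could pass the filter through its level in old alone, so that the counts over the 27 are no measure of all members. With no filter, all 61 members and 13714 genes were tested, and 12, 40 and 42 members were called in the direction of their mRNA, none in the other, beside 6.8%, 7.61% and 3.84% of all genes. These shares are over every gene with a read, of which 4643 passed the filter. Unlike the members, these genes were not limited to those past 5 CPM of mRNA, so that the shares are no like measure. Without young replicate 1, old replicate 2 and ICM replicate 3, 13, 39 and 38 of 45 tested members were called, beside 13.8%, 16.8% and 7.81% of 8007 genes.

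The comparison of ICM with young was the least certain of the 3. Its count of 12 moved to 6 without young replicate 3 and to 7 with DESeq2. TIMP3, CALD1, TGM2, LRRC17 and UACA were called under every alternative that tested them, and the other 7 (THBS1, HMGA2, SLC20A1, TXNIP, FILIP1L, NES and INHBA) lost the call under at least 1. Without young replicate 3, THBS1, HMGA2, SLC20A1, TXNIP, FILIP1L and INHBA lost it, and without ICM replicate 1 the same genes other than THBS1. HMGA2, SLC20A1 and FILIP1L also lost it without young replicate 2, and HMGA2 without ICM replicate 2. In old vs young, 15 of the 25 kept the call throughout. HMGA2, ITGA6 and SEMA7A lost it without young replicate 2, young replicate 3 or old replicate 1, HMGA2 also without old replicate 3, IGF2 without old replicate 1, LIMS2 without young replicate 3, and FILIP1L whichever young or old library was left out. In ICM vs old 22 of the 26 kept the call, with HMGA2, LIMS2 and TMEM200A losing it without ICM replicate 1 and ITGA6 and TMEM200A without old replicate 1. Calls were gained in ICM vs young by MCAM without ICM replicate 1, by LIMS2 and SEMA7A without ICM replicate 2 and by IGF2 without ICM replicate 3, and in old vs young by TMEM200A without ICM replicate 1 or 3.

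**Figure D4:**
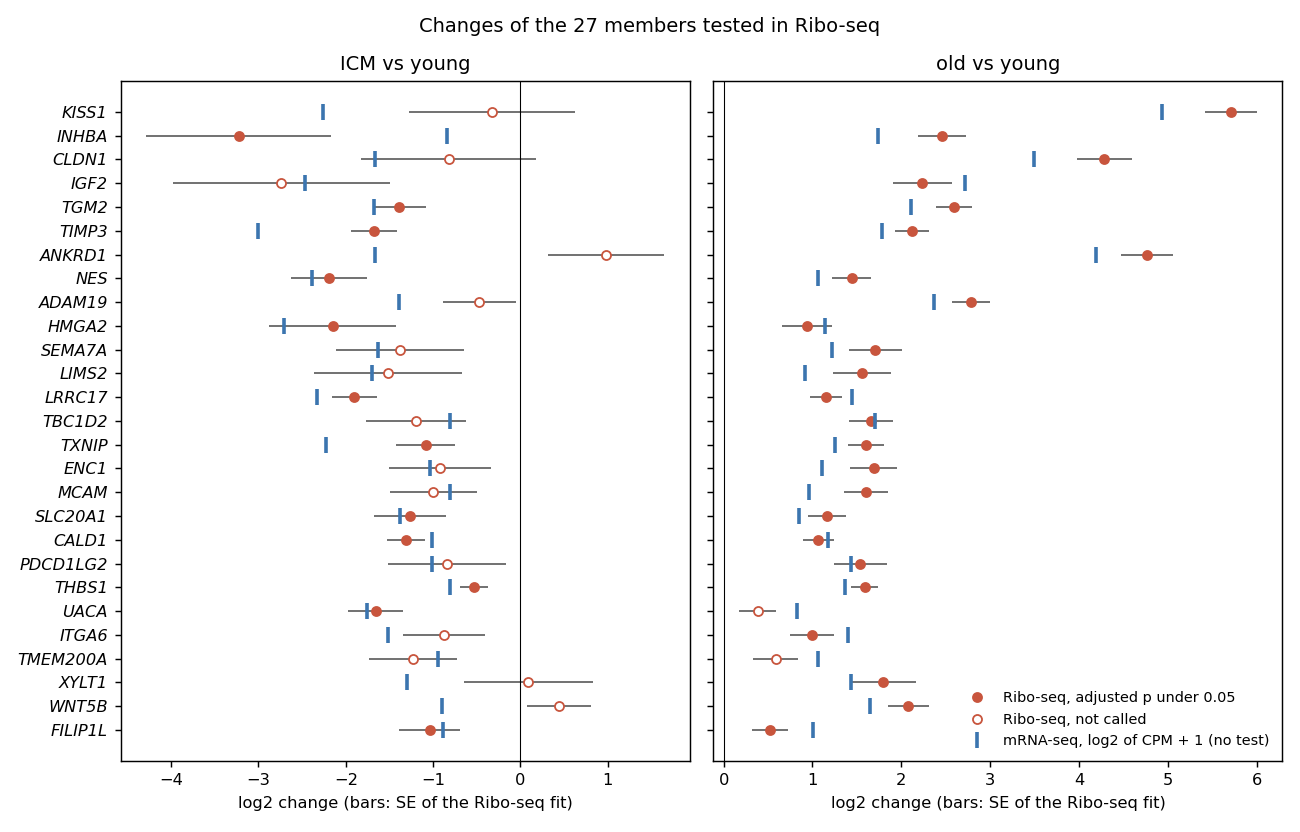
Ribo-seq log2 change (circles, with bars of 1 SE) and mRNA-seq log2 difference on CPM + 1 (blue ticks, no test) for the 27 members tested in Ribo-seq, ordered by the Ribo-seq change in ICM vs old. Filled circles were called at an adjusted p under 0.05, 12 on the left panel and 25 on the right, and all circles on the right panel lie above 0.

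Over all 61 members, group mean footprints were higher in old than in young for 58 and higher in young than in ICM for 57. The exceptions rested on few reads: SELENOW, NOG and NOX4 for the first, and KISS1, ANKRD1, CD274 and DIRAS3 for the second. Every old library lay above every young library in 35 members (8.82% of 13714 genes with a footprint), every young library above every ICM library in 18 (12.1%) and every old library above every ICM library in 43 (9.33%). Without the 3 libraries in doubt, which leaves 2 a group, these counts were 52 (24.5%), 39 (34.5%) and 56 (29.4% of 13651 genes), and group means were higher in old than in young for 60 and higher in young than in ICM for 56, with WNT5B now among the exceptions. The genes behind the shares in brackets were not limited to those past 5 CPM of mRNA. For the counts of group means, no share over all genes was taken. In the fit with no filter, the median log2 change from young to ICM was -0.41 over all genes and -1.56 in the members. From young to old these medians were -0.01 and 1.57. A lower footprint level in ICM was thus common among all genes, so that the 57 and 56 are not particular to the members. In the ICM libraries, 18 members had no CDS read and 17 had 1 to 3 reads, and in ICM replicates 1 and 2 alone 19 had none. For 10 of those with no read, old lay above the floor, at least 6.67-fold in NTM, a neural adhesion protein, 3.31-fold in the flippase ATP10A and 2.93-fold in TMEM178B.

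Summed over the 61 members, mRNA was at 5479 to 5700 CPM in young, 15924 to 16993 in old and 2048 to 2067 in ICM. Footprints summed to 7742, 8025 and 8362 CPM in young, 23444, 20451 and 24964 in old and 4044, 3950 and 5147 in ICM, without overlap. The sums without THBS1, TIMP3, CALD1, TGM2 and LRRC17 kept this order, at 1991 to 2239 CPM in young, 5252 to 6039 in old and 829 to 1125 in ICM. The ratio of summed footprints to summed mRNA, both on the CDS, ran from 1.70 to 1.75 for young, from 1.68 to 1.86 for old and was 2.07, 2.05 and 2.61 in ICM, the highest in ICM replicate 3. For 34 members with at least 100 CDS footprints, the median log2 ratio of footprints to mRNA was 0.26 (young), 0.15 (old) and 0.70 (ICM), beside 0.08, -0.01 and 0.02 over 6516 genes. The 100 footprints were summed over all 9 libraries, so that a member could pass through its level in old alone. KISS1 passed with 1257 reads in old and 3 in ICM, where its ratio was 3.58, and NTM with 132 and 0, at -1.32. The ICM ratios are thus no measure of how heavily the members were translated. Since the mRNA level that chose the members is the denominator of these ratios, they were not tested.

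**Figure D5:**
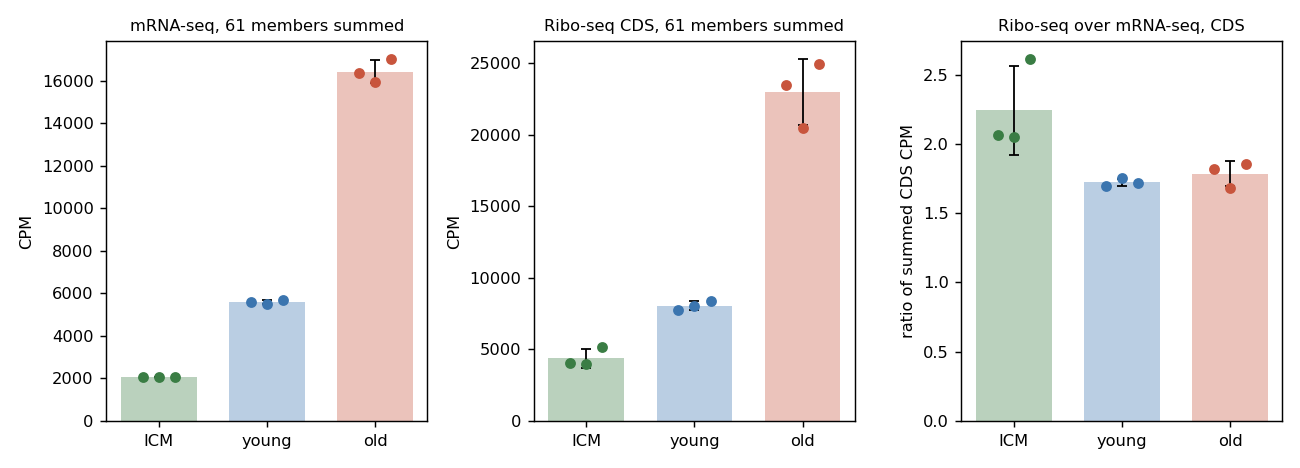
Level of the 61 members summed in each library for mRNA-seq (left, CPM) and Ribo-seq CDS (middle, CPM), and the ratio of the 2 on the CDS (right). Bars are means, error bars SD and points the 3 libraries of a group, and the ratio is 2.05 to 2.61 in ICM and 1.68 to 1.86 in young and old.

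Where reads lay within the transcripts differed between members. The 3′ UTR held 38.2% to 39.8% of the members' mRNA reads in young, 41.6% to 45.3% in old and 31.9% to 32.6% in ICM, while over all genes the share was 24.6% to 28.9%. Counting the CDS alone kept 52 of the 61 and left out THBS1, PCSK7, TMEM178B, TBC1D2, INHBA, NUAK1, FAM185A, RAP1GAP2 and HBB. FAM185A carried 90.1% of its reads in the 3′ UTR in young and 95.6% in old, and its CDS level was alike in the groups (1.34 ± 0.0456 CPM in young, 1.35 ± 0.0211 in old and 1.36 ± 0.365 in ICM, n = 3). PCSK7, a proprotein convertase, overlaps TAGLN, an SRF target at 2189 CPM in young, 3551 in old and 141 in ICM, and the 3′ UTR share of PCSK7 was 35.2%, 47.2% and 22.1%. Its footprints, 45 in young, 43 in old and 4 in ICM, overlapped between all groups, and reads of these overlapping genes may have been split. HBB and HBD are similar copies, and FBXL13 with FAM185A, MAPK8 with ARHGAP22 and CMSS1 with FILIP1L are further overlaps. HBB, HBD, FAM185A, ARHGAP22 and FILIP1L are thus uncertain as single genes. FSIP1 also overlaps THBS1, SYN3 overlaps TIMP3 and FBXL13 overlaps LRRC17. The mRNA of FSIP1, SYN3 and FBXL13 was far below the lowest group means of THBS1, TIMP3 and LRRC17 (548, 112 and 63.6 CPM, in ICM). Whether reads were split between these genes was not tested.

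Most genes of the pathways that members belong to did not meet both criteria. Of 19 SRF target and contractile genes past 5 CPM, 14 had a log2 ICM/young of at most -0.8 in mRNA but 1, CALD1, also a log2 old/young of at least 0.8, and 2 were lower in old. In Ribo-seq, 11 of 15 tested genes of that list were called lower in ICM vs young and 11 called higher and 1 lower in old vs young. Over all genes tested, 12.9% were called lower in ICM vs young and 19.3% higher in old vs young. These calls had no fold threshold, so that they and the mRNA counts are unlike measures. The median log2 old/young of the list was 0.23 in mRNA and 0.54 in footprints. Of 22 YAP and TAZ targets, 2 were lower and 1 higher in ICM mRNA and 6 higher and 0 lower in old, with ANKRD1 alone both lower in ICM and higher in old, and CCN2 was higher in both (1.16 and 1.38). Matrix genes were lower in ICM for 17 of 29 and higher for 0, and in old 6 were higher and 8 lower, with COL11A1 and THBS1 as the members. Of 20 metalloproteinases and inhibitors past 5 CPM, 7 were lower and 8 higher in ICM, and 7 higher and 2 lower in old. Of 26 junction and adhesion genes, 10 were lower and 4 higher in ICM, and 6 higher and 5 lower in old. The smooth muscle and pericyte markers, which share CNN1 and LMOD1 with the SRF list, were lower in ICM for 6 of 10 and higher for 2, and in old 1 was higher and 2 lower, at 578 to 606 CPM summed in young, 593 to 712 in old and 291 to 316 in ICM, and their part in the results was not tested.

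Among 11 SASP cytokines and chemokines past 5 CPM, 2 were lower and 2 higher in ICM, 4 were higher and 3 lower in old, and IL11 was the only member. CXCL8, the neutrophil chemokine, was higher in both, with log2 differences of 3.06 and 2.94. In the TGF-beta and activin list, 6 of 23 were lower in ICM, 6 higher in ICM, 9 higher in old and 1 lower in old, and INHBA and NOG were members. In Ribo-seq, 9 of 15 tested genes of that list were called higher and 2 lower in old vs young, and 5 lower and 3 higher in ICM vs young. Beside these, 19.3% of all genes tested were called higher in old vs young and 12.9% lower in ICM vs young. The Ribo-seq calls again had no fold threshold, unlike the mRNA counts. Peptide hormones past 5 CPM numbered 10, of which 3 were lower and 4 higher in ICM and 4 higher and 2 lower in old, with KISS1 and NPPB as the members. WNT genes past 5 CPM numbered 9, of which 3 were lower and 3 higher in ICM and 5 higher and 1 lower in old, with WNT5B as the member. No member belonged to 5 further lists. Of 19 NF-kappaB feedback genes, 9 were lower and 1 higher in ICM, and 2 higher and 9 lower in old. Of 8 AP-1 factors, 1 was lower and 2 higher in ICM, and 2 higher and 0 lower in old. Of 18 interferon-stimulated genes, 3 were lower and 3 higher in ICM, and 3 higher and 4 lower in old. Of 17 EGF and FGF family ligands, 4 were lower and 5 higher in ICM, and 5 higher and 1 lower in old. Of 12 prostaglandin genes, 1 was lower and 7 higher in ICM, and 4 higher and 3 lower in old. CDKN1A, the p21 cell cycle inhibitor, had mRNA at 522 ± 11.1 CPM in young, 1475 ± 60.6 in old and 3426 ± 109 in ICM (n = 3), higher than young in both conditions.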

How the data were processed

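Each deposited table lists gene symbols with estimated counts, which the authors split by transcript class (UTRs, CDS, non-coding) and did not scale to depth. Per the study's methods, reads were assigned to the CDS for Ribo-seq and to transcripts for mRNA-seq, and how these tables' reads were aligned is not given in the sources used here. The submitters' processing notes name STAR 2.6.0c, featureCounts, DESeq2, deepTools and GRCh37 without a role. Some reads were divided between features, so that counts need not be whole.

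Groups and replicate numbers came from the sample titles. Members were chosen by the stated rule on mRNA-seq CPM with a pseudocount of 1, over libraries scaled to their summed 5′ UTR, CDS and 3′ UTR reads, and matched to RefSeq symbols (61 of 61). The members and the gene lists were chosen with earlier results of these data known. Following the study, CDS reads were used for Ribo-seq. They were rounded and tested over all 9 libraries together by the quasi-likelihood test of edgeR 4.0.16 (R 4.3.3, TMM scaling, filterByExpr, glmQLFTest). P-values are two-sided, with Benjamini-Hochberg adjustment over every gene tested. Calls were made at an adjusted p under 0.05. The SE was taken from the log2 change and its F statistic. Levels printed for Ribo-seq are CPM of CDS reads, in which 1 read is worth from 0.58 to 21.6 CPM depending on the library. Ratios with 1 to 3 ICM reads carry exact 95% intervals, and a count of 0 was set to a floor of 3 reads over the 3 ICM libraries (8.57 CPM). Intervals and floors cover counting error only.

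On simulated counts with 200 genes changed 4-fold in ICM, the edgeR step run on 4248 genes recovered 175 of 188 changed genes tested in ICM vs young with 2 false calls, and 173 of 188 in ICM vs old with 4. The median log2 change of the tested members in ICM vs young was smaller, at -1.20. Apart from the changed genes, all simulated libraries shared the same gene proportions, without libraries in doubt. This recovery is therefore no measure of how many changes of members could be called.

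Named genes were, among the members, the 10 with the highest mRNA mean, the 10 with most footprints, the 10 with the largest log2 old/ICM, up to 15 called in ICM vs old, those held by the lists and the 3 nearest to each threshold on each side. Members outside this rule were named within groups of function. DESeq2 1.42.0, other scalings, filters, read classes and left-out libraries were alternatives. The study's anota2seq test was not used here. Promoter windows are from RefSeq on GRCh38.p14. One further gene overlap is not reported here.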

Additional observations from a re-analysis of the deposited data

Results flagged for a closer look

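MARCH4, a membrane-bound ubiquitin ligase, had footprints in its UTR columns, which the comparisons did not use, above the level in young cells. In old, 41 of its footprints lay in the UTRs and 15 in the CDS, so that the UTRs held 73.2%, beside 71.4% in young, from 10 UTR reads. Over all libraries most UTR reads were in the 5′ UTR (39 reads, against 12 in the 3′ UTR). Scaled as CPM to the CDS total of the library, its UTR footprints were at 10.3 to 36.6 in the 3 old libraries, at most 4.38 in young and 0 in ICM, with the highest of these values in old replicate 2, a library in doubt. Over all genes, the CDS held 91.6%, 40.6% and 81.3% of the UTR and CDS footprints in old, against 77.5%, 94.4% and 95.8% in young. UTR footprints in general thus differed between libraries, and the part of this in the MARCH4 values was not tested. The mRNA of MARCH4 was at 53.1, 48.8 and 45.5 CPM in young, 198, 178 and 191 in old and 25.4, 20.2 and 26.8 in ICM. TGM2 (1372 footprints in the 3′ UTR), ADAM19 (398) and IGF2 (255) also had many UTR footprints, but in these genes old and young libraries overlapped.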

How the results depend on the processing

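The rule gave 61 members, and 37 with a pseudocount of 5 or with a threshold of 1 on the log2 scale, all of them among the 61 in both cases. With TMM scaling it gave 76 and with RLE scaling 74, which included all 61, and leaving out 1 library gave 60 to 67, with at most 5 of the 61 lost. Called members in Ribo-seq numbered 12, 25 and 26 for the comparisons ICM vs young, old vs young and ICM vs old, and counts below keep this order. DESeq2 called 7, 17 and 25, thinning to the shallowest library 7, 9 and 11 of the 11 it tested, and the fit with no filter 12, 40 and 42 of 61. Fits of only the 6 libraries compared called 8, 39 and 25, and the fit without the 3 libraries in doubt 13, 39 and 38. Fewer members were tested after thinning, and more in the fits with no filter and without those libraries. Leaving out 1 library gave 6 to 14, 19 to 37 and 24 to 37. Over all genes, DESeq2 called 688, 530 and 341, the fit with no filter 1477, 2044 and 801 and the thinned fit 285, 169 and 194. With a replicate block the members called were 9, 20 and 26. No pairing of the Ribo-seq libraries by replicate number was seen (correlation of deviations from the group means 0.0047 to 0.0557 for the same number and -0.0611 to 0.0294 for others). These deviations were dominated by single libraries. Young replicate 1 stood at -0.93 with each other young library, and old replicate 2 at -0.89 and -0.90 with the other old ones. The check therefore cannot show whether cultures of the same number were paired, and mRNA-seq was not checked.

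Among the 27 members tested, no called change reversed in direction under the alternatives run. The sign of 3 uncalled changes in ICM vs young did. KISS1 went from -0.33 to 2.66 on thinning and 0.41 without ICM replicate 1, with a range of -1.74 to 0.41 over the fits without 1 library. WNT5B went from 0.44 to -0.14 without ICM replicate 1, with a range of -0.14 to 0.66. XYLT1 went from 0.09 to -0.11 with no filter, -0.070 with the replicate block, -1.34 without ICM replicate 1, -0.0073 without ICM replicate 3 and -0.020 without the 3 libraries in doubt. The cause of these shifts was not tested. Depth limits the ICM side most, where 35 of 61 members had at most 3 reads.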
